A study of Arabidopsis thaliana with 8 samples.

Results

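The Argonaute genes of Arabidopsis thaliana were followed as a family through 8 RNA-seq libraries from inflorescences. The 9 members, AGO1 to AGO7, AGO9 and AGO10, were chosen by gene identifier, and each had a single row among the 32232 loci of the expression table. AGO8 is not among them. The libraries form 4 groups of 2: dbr1-2 and wild-type Col-0 without RNase R, and dbr1-2 and wild-type Col-0 after RNase R digestion of the RNA, which lasted 2 h at 37 °C. dbr1-2 is a mutant in the Columbia background, the background of Col-0 itself, and it is named after DBR1, an enzyme that cleaves the branch of the lariats that spliced introns form. RNase R degrades linear RNA, whereas circles and the loops of lariats resist it. The labels put all plants at 22 °C under days of 16 h light followed by 8 h dark, and ribosomal RNA was depleted from all RNA, per the labels' protocols. The title of the series gives intron branchpoints and plant lariat RNAs as its subject.

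Argonaute proteins hold a small RNA and use its sequence to find RNA that pairs with it. They are the effectors of microRNAs and small interfering RNAs. In plants they form 3 clades. AGO1, AGO5 and AGO10 make up the first, and AGO1 is the general effector of microRNAs. AGO2, AGO3 and AGO7 make up the second. It includes an antiviral Argonaute, AGO2, and AGO7, which binds miR390 and acts on the TAS3 transcript to start the small RNAs that silence auxin response factors. AGO4, AGO6 and AGO9 make up the third, which directs DNA methylation at transposons and repeats. In the flower AGO10 is known for its role in the shoot meristem, AGO5 and AGO9 for roles around the germ cells.

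Some of these genes are themselves microRNA targets, and the pairing that ties them to their regulators can be read from the RefSeq sequences (TAIR10.1, whose nuclear sequence is that of TAIR10). The 3 microRNAs are shown because miR168 is the known regulator of AGO1, miR403 that of AGO2, and miR390 the partner of AGO7. Capitals mark the seed, bases 2 to 8 from the 5′ end, and no seed is shared between the 3 families. The miR168 sequence printed lies at chr4:10578652-10578672 on the plus strand, and MIR168B encodes the same 21 bases. The miR403 sequence lies at chr2:19415154-19415174 (plus), and that of miR390 at chr2:16061971-16061991 (plus), with an identical copy in MIR390B.
ath-miR168a-5p: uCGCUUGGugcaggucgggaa
ath-miR403-3p: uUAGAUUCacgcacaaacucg
ath-miR390a-5p: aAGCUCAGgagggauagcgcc

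The best match of each microRNA in the annotated transcripts is shown next, 5′ to 3′ in DNA letters, with capitals for bases in Watson-Crick pairs. Each site was scored as its mismatches plus 0.5 for every G:U pair, and the lower score is the better match.
AGO1 with miR168: TTCCCGAgCTGCAtCAAGCtA
AGO2 with miR403: gGAGTTTGTGCGTGAATCTAA
AGO3 with miR403: gatGTTTGTGCGTGAATCTAA
TAS3 with miR390: GGtGtTATCCtatCTGAGCTT
TAS3 with miR390, next best: ttgtCTATCCCTCCTGAGCTa

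The AGO1 site lies in the coding sequence (chr1:17891529-17891549, minus strand), with 18 pairs, 1 G:U pair and 2 mismatches. Of 27444 genes scanned, AGO1 was the 1 gene with a score this low. In AGO2 the miR403 site falls in the 3′ UTR (chr1:11185223-11185243, plus strand), has 20 pairs and 1 mismatch, and was again the best match among the 27444 genes. AGO3 carries the matching site in its own 3′ UTR (chr1:11192399-11192419, plus strand), with 18 pairs and 3 mismatches, and 3 of the 27444 genes scored as low or lower. For both microRNAs the best matches in the other Argonaute transcripts scored 5.5 to 7.5. The sites of AGO2 and AGO3 share the stretch from the fourth base on. The TAS3 sites lie at chr3:5862099-5862119, with 16 pairs, 4 G:U pairs and 1 mismatch, and at chr3:5862343-5862363, with 16 pairs and 5 mismatches. A match describes sequence only, and cleavage at it was not measured.

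Gene structure divided the family. AGO2 (AT1G31280, chr1:11181504-11185396, plus strand) and AGO7 (AT1G69440, chr1:26101407-26105328, minus strand) have 2 introns each. AGO3 (AT1G31290, chr1:11188120-11192585, plus strand) has 2 or 3 depending on the transcript, and begins 2723 nt after the end of AGO2. The other 6 genes carry 19 to 22 introns. They are AGO1 (AT1G48410, chr1:17885633-17892632, minus), AGO5 (AT2G27880, chr2:11871378-11876989, plus), AGO10 (AT5G43810, chr5:17610744-17616907, plus), AGO4 (AT2G27040, chr2:11536502-11542391, minus), AGO6 (AT2G32940, chr2:13971916-13977521, minus) and AGO9 (AT5G21150, chr5:7192239-7198381, plus). Introns took up 7.47% to 12.3% of the transcribed span in the AGO2, AGO3 and AGO7 genes, against 36.1% to 49.9% in the 6 intron-rich genes. Exon length was at most 3918 nt in all 9. The longest single intron of the family, 1117 nt, belongs to AGO9.

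**Figure D1:**
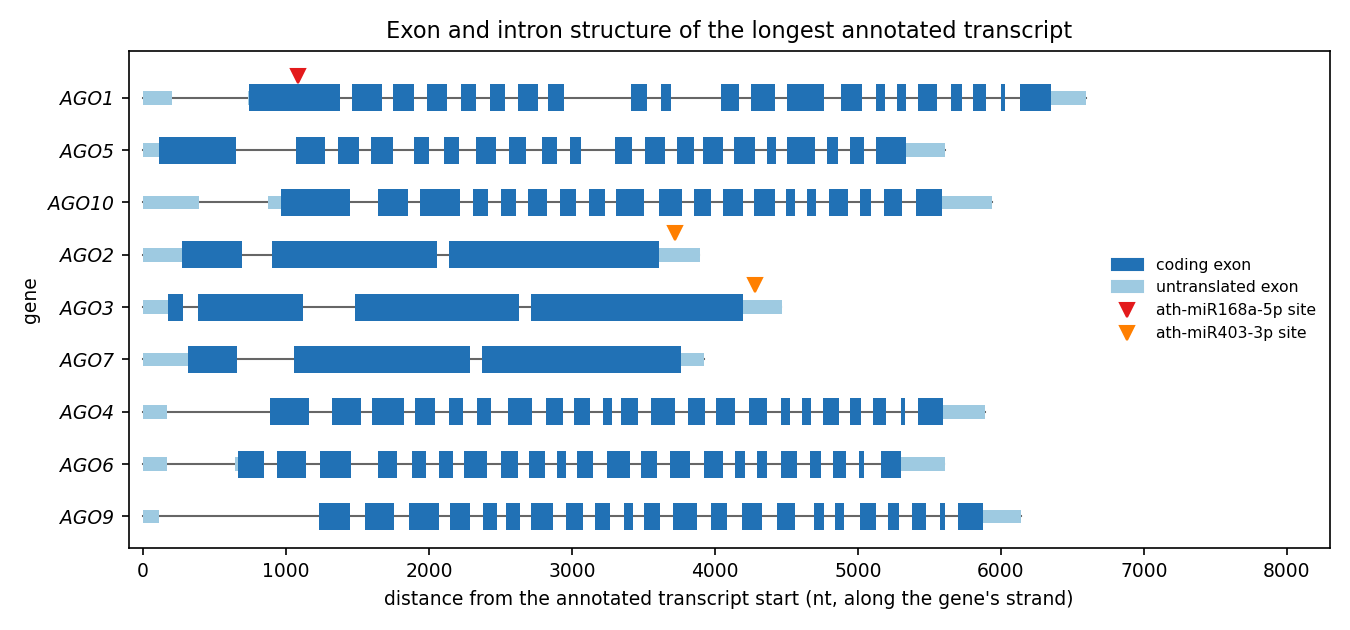
Exons and introns of the longest annotated transcript of each Argonaute gene, plotted as distance in nt from the transcript start along the gene's strand; dark boxes are coding exons, pale boxes untranslated exons, lines introns, and triangles the best microRNA sites. AGO2, AGO3 and AGO7 have 2 or 3 introns and the other 6 genes 19 to 22; the miR403 sites of AGO2 and AGO3 stand past the coding sequence, the miR168 site of AGO1 in its first coding exon.

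The table gives FPKM (fragments per kilobase of transcript, scaled to the mapped fragments of the library), a level per transcript length. The FPKM of all loci summed to between 2796450 and 4003100 in the RNase R libraries, against 295494 to 384482 in those without it. Low values came in steps of whole reads, from which 1 FPKM on 1 kb was worth 8.63 to 12.8 reads with RNase R and 74.6 to 89.7 reads without, so digested libraries were the less precise. Without RNase R, DBR1 itself stood at 0.339 and 0.43 FPKM in dbr1-2 and at 0.662 and 0.694 FPKM in Col-0. Flower markers (AP1, AP3, PI, AG, SEP3 and LFY) summed to 50.4 to 53.4 FPKM in dbr1-2 and 52.7 to 55 FPKM in Col-0 in those 4 libraries. Within that sum PI was higher in dbr1-2 (20.4 to 21.3 FPKM, against 14.8 to 15 FPKM in Col-0), and SEP3 (11.4 to 11.8 FPKM in dbr1-2, against 15.9 to 16.5 FPKM in Col-0) and AP1 (5.88 to 6.42 FPKM in dbr1-2, against 7.98 to 9.08 FPKM in Col-0) were lower. EXP7 of root hairs and SESA3 of seeds were listed at 0 in all 8 libraries. Without RNase R, the other root hair marker, COBL9, stood at 0.212 to 0.381 FPKM, and the other seed marker, CRA1, at 0 to 0.0239 FPKM. Markers of other cell types also separated the genotypes without RNase R. The 3 pollen markers summed to 3.78 to 4.28 FPKM in dbr1-2, against 14.3 to 15.3 FPKM in Col-0. The 3 meristem markers, of which CLV3 was listed at 0 in all libraries and STM made up most of the sum, summed to 11.2 to 12.2 FPKM in dbr1-2, against 5.86 to 6.34 FPKM in Col-0. DMC1, a recombinase of meiosis, stood at 2.38 to 2.43 FPKM in dbr1-2, against 1.25 to 1.3 FPKM in Col-0. The ovule markers disagreed. BEL1 was higher (3.46 and 3.5 FPKM in dbr1-2, against 2.27 and 2.45 FPKM in Col-0), and STK overlapped. ANT, whose interval is shared by 63 loci, was lower (2.55 and 2.72 FPKM in dbr1-2, against 4.22 and 4.13 FPKM in Col-0). Of the green tissue markers RBCS1A was higher and CAB1 lower in dbr1-2. In the tags that name the sequencing runs, removal of mRNA is written beside that of ribosomal RNA for 7 libraries and is absent for the eighth, dbr1-2 replicate 1 digested with RNase R.

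Within every library the family spanned a wide range of levels, with AGO1 on top. FPKM in this paragraph are per length, so genes can be set side by side as sequenced. The tags name removal of mRNA for 7 libraries, and whether it took transcripts unequally was not measured. The order is therefore that of the sequenced RNA. Without RNase R, AGO1 averaged 13.3 ± 0.0535 FPKM in dbr1-2 and 16.2 ± 0.923 FPKM in Col-0 (SD, n = 2 each). AGO4, the main Argonaute of RNA-directed DNA methylation, came second with 9.25 ± 0.252 FPKM in dbr1-2 and 9.26 ± 0.237 FPKM in Col-0 (SD, n = 2 each). AGO9 and AGO10 followed at 6.03 to 6.89 FPKM and overlapped in both genotypes, so their order could not be told. AGO5 came next, at 2.97 to 3.74 FPKM. AGO7 stood above AGO2 in dbr1-2 with no overlap (2.47 and 2.55 FPKM for AGO7, 1.75 and 1.76 FPKM for AGO2). In Col-0 the same pair touched, at 1.66 and 1.72 FPKM for AGO7 and 1.62 and 1.66 FPKM for AGO2. AGO6 and AGO3 closed the order below 0.36 FPKM in every library without RNase R. They did not reach the expression filter of 1 FPKM in at least 2 libraries, which 7 of the 9 members passed.

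**Figure D2:**
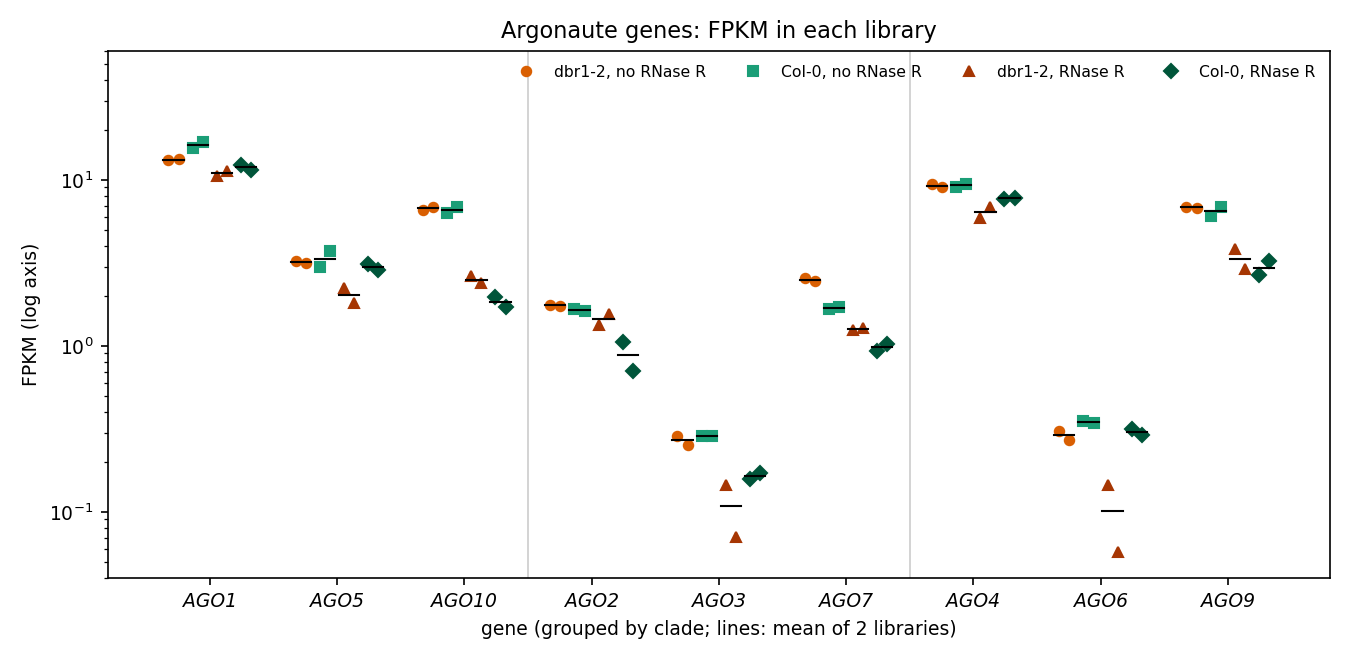
FPKM (log axis) of each Argonaute gene in each of the 8 libraries, genes grouped by clade, points for libraries and black lines for the mean of the 2 libraries of a group. AGO1 is highest in every library; AGO7 stands apart in dbr1-2 without RNase R, AGO10 and AGO9 drop with RNase R in both genotypes, and AGO3 and AGO6 lie below 0.4 FPKM throughout.

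The comparison of dbr1-2 with Col-0 without RNase R asks how the family's transcripts stand where debranching is impaired. AGO7 was the 1 member called, higher in dbr1-2, out of 7 tested. Of all tested loci 17.5% were called, 14.2% higher and 3.32% lower, so 1 of 7 is near the background. Calls rest on limma on log2(FPKM + 1) with a Benjamini-Hochberg adjusted p under 0.05, and p-values measure only the spread between these libraries, since no label says that they came from separate plants or harvests. Log2 fold changes are on that scale, which understates changes of low genes. AGO7 had 2.55 and 2.47 FPKM in dbr1-2, against 1.66 and 1.72 FPKM in Col-0. Both mutant libraries lay above both wild-type libraries. Its log2 fold change was 0.38 ± 0.09 (SE), with a limma adjusted p of 0.0241, and 82.5% of tested loci had a lower one. Between the libraries with the earlier tag date the difference was 0.42 and between those with the later it was 0.35, with 1 library per genotype in each. The call was lost when any 1 of the 4 libraries without RNase R was left out (limma adjusted p 0.132 to 0.187), and under median-ratio scaling the fold change was 0.24 with a limma adjusted p of 0.191.

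AGO1 lay on the other side. It had 13.2 and 13.3 FPKM in dbr1-2, against 15.5 and 16.8 FPKM in Col-0, with both mutant libraries below both wild-type ones. The log2 fold change was -0.27 ± 0.09 (SE) with a limma adjusted p of 0.0799, which missed the threshold, and 7.34% of tested loci had a lower fold change. The difference was -0.21 between the libraries with the earlier tag date and -0.32 between those with the later. The median fold change of all tested loci was 0.13, and median-ratio scaling moved it to 0.01. On that scale AGO1 was called lower in dbr1-2, at -0.41 with a limma adjusted p of 0.0489. Rescaling to nuclear protein-coding loci also called it lower, at -0.46 with a limma adjusted p of 0.0125. AGO1 was not called on the TPM scale, with a pseudocount of 0.1 or with tag year as a covariate. The interval listed for AGO1 in the table also spans AT1G48405 on the same strand, a locus with no row of its own. Reads of AT1G48405 may be counted under AGO1.

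AGO5 and AGO10, the partners of AGO1 in its clade, gave no call. AGO10, which binds miR165 and miR166, had 6.61 and 6.87 FPKM in dbr1-2, against 6.31 and 6.89 FPKM in Col-0. AGO5 had 3.26 and 3.16 FPKM in dbr1-2, against 2.97 and 3.74 FPKM in Col-0. The groups overlapped for both genes. The fold changes were 0.03 for AGO10 (limma adjusted p 0.885) and -0.04 for AGO5 (limma adjusted p 0.849). A difference between meristem markers of the size given above stood beside an AGO10 level that overlapped between the genotypes, and the part of cell type makeup was not tested. In bulk tissue, fewer cells of a type and less RNA per cell cannot be told apart.

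Among the other members of the AGO7 clade, AGO2 had 1.76 and 1.75 FPKM in dbr1-2, against 1.66 and 1.62 FPKM in Col-0. The groups did not overlap, but the log2 fold change of 0.06 had a limma adjusted p of 0.768 and lay below 0 under each of the 3 scalings tried. AGO3, its neighbour on the chromosome and a close relative, had 0.288 and 0.251 FPKM in dbr1-2, against 0.288 and 0.286 FPKM in Col-0. These values rest on roughly 70 to 96 reads a library, and the sources used here do not say how the authors' counting divided reads between the 2 related genes. AGO2 stood 6.12 and 6.94 times above AGO3 in the dbr1-2 libraries, against 5.77 and 5.66 times in the Col-0 libraries.

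The DNA methylation clade did not separate the genotypes without RNase R. AGO4 had 9.42 and 9.07 FPKM in dbr1-2, against 9.09 and 9.43 FPKM in Col-0, a log2 fold change of -0.00 with an SE of 0.10 and a limma adjusted p of 0.992. AGO9, known from the ovule, had 6.88 and 6.76 FPKM in dbr1-2, against 6.03 and 6.87 FPKM in Col-0, with a limma adjusted p of 0.757. Both pairs of groups overlapped. AGO6, a relative of AGO4 active in meristems, had 0.307 and 0.271 FPKM in dbr1-2, against 0.354 and 0.341 FPKM in Col-0. Its mutant libraries lay below the wild-type ones, and in a fit without filter the adjusted p from limma was 0.555.

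After RNase R the same comparison called 3 of the 7 tested members, AGO2 and AGO10 higher and AGO5 lower in dbr1-2. Of all tested loci 37% were called, 29.9% higher and 7.09% lower, so this share is also near the background. In these 4 libraries genotype and tag year cannot be told apart, since both dbr1-2 libraries carry a tag of the earlier year and both Col-0 libraries a tag of the later year, on 2 different dates. The values are therefore those of the libraries, with the genotype as labelled.

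AGO2 had 1.33 and 1.56 FPKM in digested dbr1-2, against 1.05 and 0.705 FPKM in digested Col-0. The groups were apart, though the Col-0 libraries differed widely, and about 21 to 68 reads a library stand behind these values. The log2 fold change was 0.39 ± 0.11 (SE) with a limma adjusted p of 0.032. AGO10 had 2.62 and 2.4 FPKM in digested dbr1-2, against 1.97 and 1.71 FPKM in digested Col-0. Both mutant libraries were the higher ones, with a log2 fold change of 0.31 ± 0.10 (SE) and a limma adjusted p of 0.0404. AGO5 showed the opposite order, with 2.24 and 1.8 FPKM in dbr1-2 and 3.12 and 2.85 FPKM in Col-0, all digested. Its groups did not overlap, and the log2 fold change was -0.40 ± 0.12 (SE) with a limma adjusted p of 0.0352. AGO2 and AGO10 kept their direction but lost the call under each of the 3 scalings tried, at 0.11 for AGO2 and 0.07 for AGO10 on the TPM scale. AGO5 was called under median-ratio scaling (-0.60) and not on the TPM scale (-0.34, limma adjusted p 0.234). With tag year as a covariate all 3 calls were lost (limma adjusted p 0.346 for AGO5, 0.135 for AGO10 and 0.23 for AGO2). Cell type markers differed too in these libraries, and their part was not tested. After digestion a marker's FPKM also depends on how much of its RNA resisted RNase R, so it does not measure cell makeup. BEL1 rose with RNase R in dbr1-2 (from 3.46 and 3.5 FPKM) and fell in Col-0 (from 2.27 and 2.45 FPKM). AP1 rose in Col-0 (from 9.08 and 7.98 FPKM) and fell in dbr1-2 (from 6.42 and 5.88 FPKM). The meristem markers summed to 8.87 to 10 FPKM in dbr1-2 and 3.4 to 4.93 FPKM in Col-0, a difference carried by STM (8.4 and 9.69 FPKM in dbr1-2, against 2.97 and 4.48 FPKM in Col-0), while WUS overlapped. The ovule markers summed to 8.9 to 11.1 FPKM in dbr1-2 and 3.25 to 3.8 FPKM in Col-0, a difference carried by BEL1 (7.94 and 9.61 FPKM in dbr1-2, against 1.5 and 1.49 FPKM in Col-0), while STK and ANT overlapped. The pollen markers summed to 1.3 to 2.89 FPKM in dbr1-2, against 6 to 6.23 FPKM in Col-0. The flower markers went in different directions. AP1 stood at 5.21 and 5.36 FPKM in dbr1-2, against 10.2 and 10.8 FPKM in Col-0, and SEP3 and AG were lower in dbr1-2 too. PI was higher, at 5.39 and 6.56 FPKM in dbr1-2, against 2.17 and 3.36 FPKM in Col-0, as was LFY, while AP3 overlapped.

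The remaining tested members gave no call with RNase R. AGO7 had 1.25 and 1.28 FPKM in digested dbr1-2, against 0.933 and 1.03 FPKM in digested Col-0. The order of the groups was that seen without digestion, with a log2 fold change of 0.19 ± 0.09 (SE) and a limma adjusted p of 0.131. AGO4 had 5.91 and 6.89 FPKM in digested dbr1-2, against 7.65 and 7.81 FPKM in digested Col-0, with a limma adjusted p of 0.0826. AGO1 had 10.6 and 11.3 FPKM in digested dbr1-2, against 12.3 and 11.5 FPKM in digested Col-0, with a limma adjusted p of 0.346. Both genes lay lower in the mutant libraries without overlap. Under median-ratio scaling both were called lower, AGO4 at -0.43 (limma adjusted p 0.0197) and AGO1 at -0.31 (limma adjusted p 0.0458). Neither was called on the TPM scale, with nuclear rescaling or with tag year as a covariate. AGO9 had 3.82 and 2.89 FPKM in digested dbr1-2, against 2.68 and 3.25 FPKM in digested Col-0, and overlapped.

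AGO3 and AGO6, below the filter, were near the limit of the digested libraries. AGO6 had 0.146 and 0.0571 FPKM in digested dbr1-2, against 0.317 and 0.29 FPKM in digested Col-0. That is about 5 and 2 reads in the mutant libraries and 10 and 7 reads in the wild-type ones. In the fit without filter AGO6 was called lower in dbr1-2 (log2 fold change -0.24, limma adjusted p 0.0208), a call that rests on these few reads. AGO3 had 0.145 and 0.0709 FPKM in digested dbr1-2, against 0.157 and 0.171 FPKM in digested Col-0, or 3 to 7 reads a library. At this depth 3 reads are worth 0.0632 to 0.119 FPKM for these 2 genes, so a difference in AGO3 was not detectable.

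The deposited values of most of the family were lower with RNase R than without. In dbr1-2, 6 of the 7 tested members were called lower and none higher, where 84.3% of all tested loci were called, 69.3% lower and 15% higher. In Col-0, 5 of the 7 were called lower and none higher, where 79.3% of loci were called, 71% lower and 8.27% higher. The members' counts are thus close to those of all loci. The median fold change of all tested loci was -0.69 in dbr1-2 and -0.66 in Col-0, and median-ratio scaling moved these medians to -0.09 in dbr1-2 and -0.07 in Col-0. Direction and size therefore depend on the scaling, and each member is best read against the median of all loci.

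AGO10 had the largest fall of the 7 in both genotypes. With RNase R it had 2.62 and 2.4 FPKM in dbr1-2, against 6.61 and 6.87 FPKM without, and 1.97 and 1.71 FPKM in Col-0, against 6.31 and 6.89 FPKM without. No digested library came near an undigested one. The log2 fold change was -1.14 ± 0.10 (SE) in dbr1-2 (limma adjusted p 2.1e-05) and -1.42 ± 0.10 (SE) in Col-0 (limma adjusted p 9.72e-06). Against the median of all loci this is -0.45 in dbr1-2 and -0.76 in Col-0. AGO10 was called lower under every scaling tried, and under median-ratio scaling its fold change was -0.38 in dbr1-2 and -0.68 in Col-0. Between libraries of the same tag year the difference was -1.12 in dbr1-2 and -1.48 in Col-0.

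AGO9 followed AGO10. Its 3.82 and 2.89 FPKM with RNase R in dbr1-2 stood against 6.88 and 6.76 FPKM without, and its 2.68 and 3.25 FPKM in Col-0 against 6.03 and 6.87 FPKM without. The groups were apart in both genotypes, with log2 fold changes of -0.85 in dbr1-2 (limma adjusted p 0.000465) and -0.91 in Col-0 (limma adjusted p 0.000386). Relative to the median of all loci these were -0.16 in dbr1-2 and -0.25 in Col-0, and median-ratio scaling left no call for AGO9 in either genotype. AGO7 fell by 0.63 on the log2 scale in dbr1-2 (limma adjusted p 0.000269) and by 0.44 in Col-0 (limma adjusted p 0.00219), in both genotypes less than the median of all loci, and on the median-ratio scale it stood at 0.11 in Col-0.

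AGO1 held up better than most loci. It had 10.6 and 11.3 FPKM with RNase R in dbr1-2, against 13.2 and 13.3 FPKM without, and 12.3 and 11.5 FPKM in Col-0, against 15.5 and 16.8 FPKM without. On the deposited scale AGO1 fell by 0.26 on the log2 scale in dbr1-2 (limma adjusted p 0.0238) and by 0.41 in Col-0 (limma adjusted p 0.00303). Of the tested loci 71.7% in dbr1-2 and 66.3% in Col-0 had a lower fold change. Under median-ratio scaling the direction turned, and AGO1 was higher with RNase R, by 0.62 in dbr1-2 and 0.51 in Col-0. AGO4 likewise turned, with -0.47 in dbr1-2 as deposited (limma adjusted p 0.0019) and 0.37 under median-ratio scaling. AGO4 in Col-0 and AGO2 in dbr1-2 missed the threshold as deposited, at -0.23 (limma adjusted p 0.0515) and -0.17 (limma adjusted p 0.193). On the median-ratio scale both were called higher with RNase R, AGO4 in Col-0 by 0.65 (limma adjusted p 0.00193) and AGO2 in dbr1-2 by 0.40 (limma adjusted p 0.0379).

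AGO5 was called lower with RNase R in dbr1-2 (-0.48, limma adjusted p 0.00639) and not in Col-0 (-0.12, limma adjusted p 0.38), whereas median-ratio scaling gave 0.19 in dbr1-2 and called it higher in Col-0 (0.63, limma adjusted p 0.00234). AGO2 was called lower in Col-0 (-0.50, limma adjusted p 0.00438), which median-ratio scaling turned to 0.037, and not in dbr1-2. The difference between the genotypes was tested as the interaction of genotype and RNase R, and it called 0 of the 7 members in limma, with 0 at an unadjusted p under 0.05, where 13.7% of all loci were called, 10.8% with a positive and 2.99% with a negative interaction. The interaction was -0.36 for AGO5 (limma adjusted p 0.222), 0.33 for AGO2 (limma adjusted p 0.236) and 0.28 for AGO10 (limma adjusted p 0.228). A different response of any member in the 2 genotypes was thus not shown, and equal responses were not shown either.

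**Figure D3:**
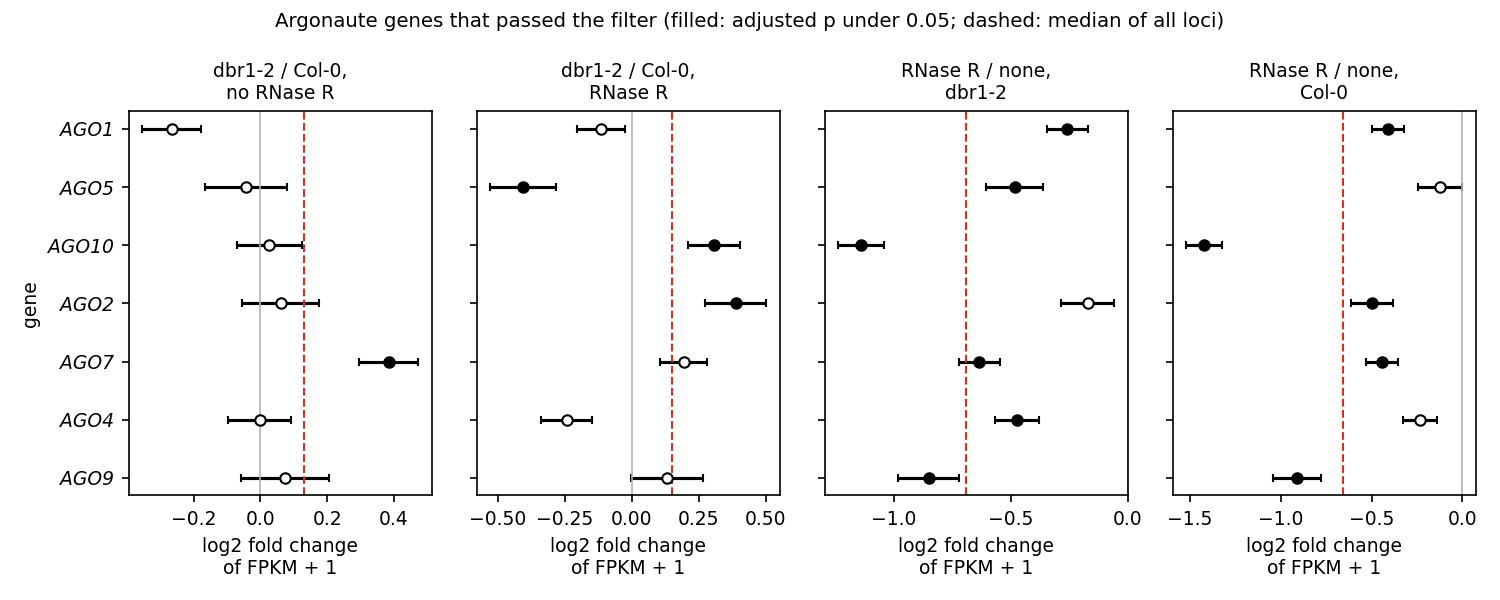
Log2 fold change of FPKM + 1 with its SE for the 7 tested Argonaute genes in 4 comparisons, filled points for a limma adjusted p under 0.05 and the red dashed line for the median of all 14351 tested loci. Without RNase R the call is AGO7, at 0.38; with RNase R, AGO10 and AGO2 lie right of 0 and AGO5 left of it; in the 2 panels of RNase R against none, AGO10 lies farthest to the left.

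The 4 comparisons share libraries, so their fold changes are not independent of each other. Ratios of members within a library do not depend on how libraries are scaled, and they are given as descriptions. AGO10 stood at 0.5 and 0.517 of the AGO1 level in dbr1-2, against 0.407 and 0.41 in Col-0, without RNase R. In digested libraries it stood at 0.247 and 0.214 in dbr1-2, against 0.16 and 0.148 in Col-0. The dbr1-2 libraries gave the higher ratio at both settings, and digestion lowered the ratio in both genotypes without overlap. AGO7 stood at 0.193 and 0.186 of the AGO1 level in dbr1-2, against 0.107 and 0.103 in Col-0, without RNase R. In digested libraries it stood at 0.118 and 0.113 in dbr1-2, against 0.076 and 0.0891 in Col-0. Without RNase R, AGO1 lay lower in the dbr1-2 libraries, AGO7 higher, and AGO10 overlapped between the genotypes, so a ratio does not say which of its 2 transcripts differs.

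The summed FPKM of the 9 genes was 28 to 30.2 with RNase R, against 43.9 to 47.7 without, while the sum over all loci was higher with RNase R. The family therefore made up 0.0007% to 0.00108% of all FPKM with RNase R, against 0.0115% to 0.0161% without. AGO1 supplied 29.8% and 30.3% of the family's FPKM in dbr1-2, against 35.3% and 35.2% in Col-0, without RNase R. The share of AGO7 was 5.76% and 5.63% in dbr1-2, against 3.78% and 3.61% in Col-0. With RNase R, AGO10 supplied 9.34% and 8.53% in dbr1-2, against 6.53% and 5.82% in Col-0, all below the 14.4% to 15.6% it supplied without. Shares of one sum are tied to each other, so that a lower share of one member raises those of the rest.

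**Figure D4:**
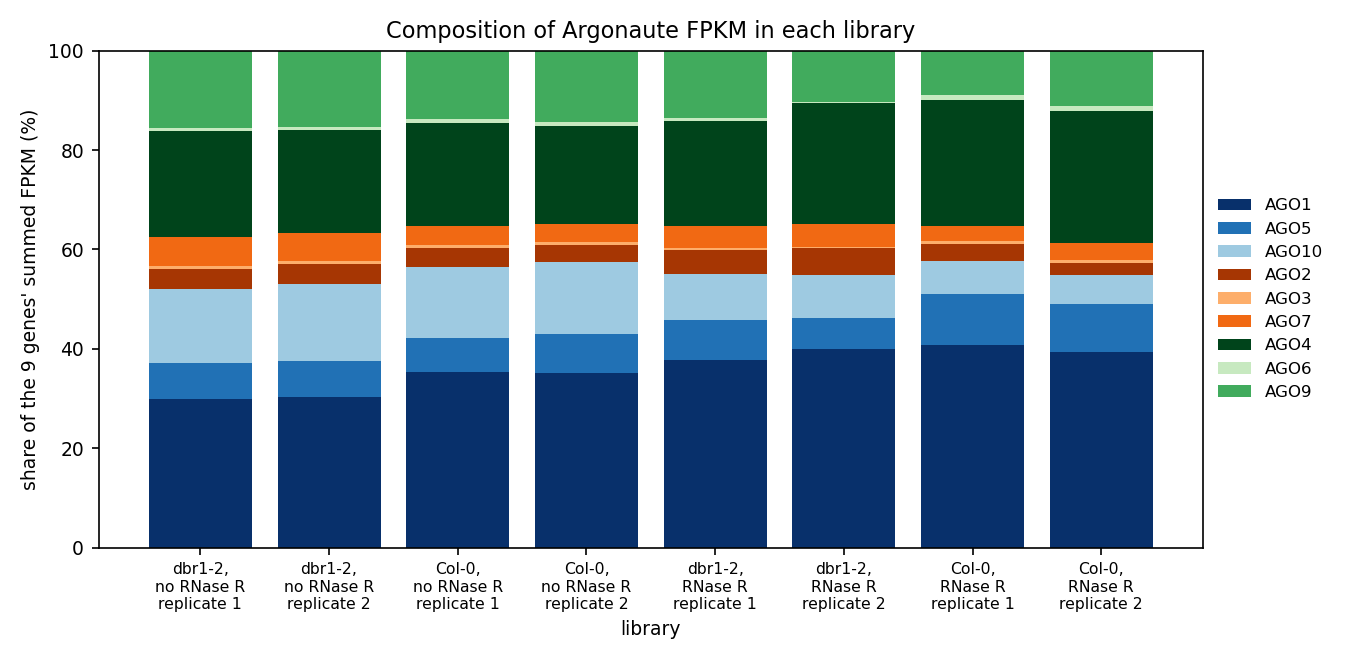
Share (%) of each Argonaute gene in the summed FPKM of the 9 genes, 1 bar per library, blue shades for AGO1, AGO5 and AGO10, orange shades for AGO2, AGO3 and AGO7, green shades for AGO4, AGO6 and AGO9. AGO1 takes 29.8% to 30.3% in dbr1-2 and 35.2% to 35.3% in Col-0 without RNase R, and AGO10 shrinks in all 4 RNase R libraries.

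Genes that act with the Argonautes were examined in 5 lists: partners and loading factors, small RNA production, DNA methylation, small RNA precursors, and the targets of TAS3. Of 41 listed genes 40 were in the table under their own name and 33 passed the filter. HSP90.2 was not analysed here. Without RNase R, 3 of the 33 were called higher in dbr1-2 and none lower, with 7 at an unadjusted p under 0.05 in limma, where 14.2% of all loci were called higher and 3.32% lower. The median fold change of the 33 was 0.10, against 0.13 for all tested loci. The 3 became 8 higher and 1 lower with only the libraries compared, where 4703 of all 14351 loci were called higher and 1144 lower. They became 3 higher and 2 lower on the TPM scale, where 1878 of all loci were called higher and 1277 lower. Nuclear rescaling gave 2 higher and 2 lower of 31, where 1422 of 13560 loci were called higher and 1308 lower. The count also moved when a library was left out. HSP90.1, a chaperone that assists the loading of Argonautes, had 1.8 and 1.54 FPKM in dbr1-2, against 0.341 and 0.236 FPKM in Col-0 (log2 fold change 1.05, limma adjusted p 0.000679). DRD1, a chromatin remodeller of the DNA methylation pathway, had 3.39 and 2.56 FPKM in dbr1-2, against 1.14 and 1.4 FPKM in Col-0 (0.80, limma adjusted p 0.00663). Both were called higher under each of the 3 scalings tried as well. DRD1 overlaps another annotated gene, so its reads may not all be its own. The third was TAS3. The genes with the next smallest p missed the threshold. They were NRPD2, a subunit of the polymerases of the DNA methylation pathway (0.27, limma adjusted p 0.101), DCL4, the Dicer of the TAS3 route (0.26, limma adjusted p 0.129), DCL3, another Dicer, and DRM2, the DNA methyltransferase (0.23, limma adjusted p 0.137). Unlike the others, DCL3 lay lower in dbr1-2 (-0.24, limma adjusted p 0.134).

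The AGO7 route joins 3 kinds of member whose levels can be set side by side. TAS3 had 8.86 and 6.77 FPKM in undigested dbr1-2, against 4.92 and 4.3 FPKM in undigested Col-0. Both mutant libraries were higher, as they were for AGO7, and the log2 fold change was 0.65 ± 0.14 (SE) with a limma adjusted p of 0.0192, which median-ratio scaling took to 0.47 and 0.0635. The TAS3 targets ARF2, ARF3 and ARF4, auxin response factors, gave no call between genotypes, with or without RNase R. ARF2 still lay higher in both dbr1-2 libraries, at 21.7 and 20.9 FPKM against 19.7 and 19.9 FPKM in Col-0, undigested (limma adjusted p 0.453). Digested, it had 10.9 and 10.4 FPKM in dbr1-2, against 9.38 and 9.84 FPKM in Col-0 (limma adjusted p 0.25). ARF3 had 2.93 and 2.83 FPKM in undigested dbr1-2, against 2.8 and 3.32 FPKM in undigested Col-0. Digested, it lay higher in dbr1-2, at 3.99 and 3.44 FPKM against 3.21 and 3.42 FPKM. ARF4 had 2.37 and 2.44 FPKM in undigested dbr1-2, against 2.28 and 2.53 FPKM in undigested Col-0. With RNase R, TAS3 had 44.4 and 40 FPKM in dbr1-2 and 38.4 and 45.1 FPKM in Col-0. The genotypes overlapped. Against the undigested libraries the log2 fold change was 2.30 in dbr1-2 (limma adjusted p 5.22e-06) and 2.93 in Col-0 (limma adjusted p 2.42e-06) as deposited, and with each library scaled to the same sum as TPM it turned to -0.94 in dbr1-2 and -0.17 in Col-0. TAS3 is a non-coding transcript, and whether it is circular or branched was not measured. The precursor of the microRNA that AGO7 binds, MIR390A, stood at 0.528 to 0.59 FPKM in all 4 undigested libraries, and MIR390B was listed at 0 in all 8.

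**Figure D5:**
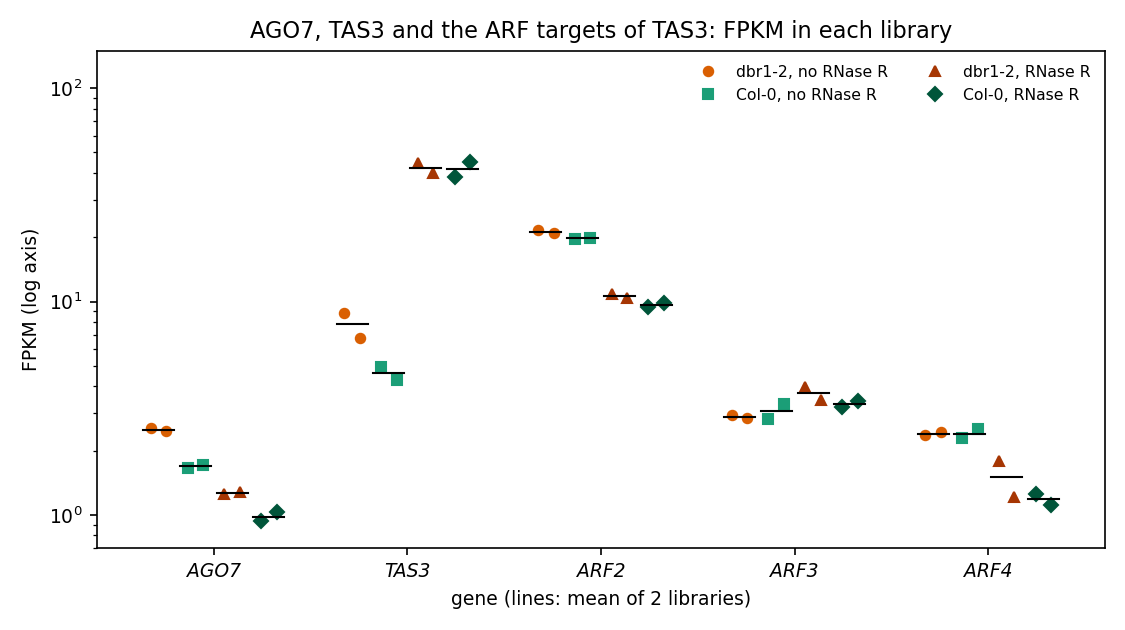
FPKM (log axis) of AGO7, TAS3 and the TAS3 targets ARF2, ARF3 and ARF4 in each library, with black lines for the mean of the 2 libraries of a group. Without RNase R, AGO7 and TAS3 are higher in both dbr1-2 libraries than in both Col-0 libraries; with RNase R, TAS3 lies at 38.4 to 45.1 FPKM in all 4 libraries while AGO7 lies at 0.933 to 1.28 FPKM.

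The precursors of the other microRNAs shown above did not separate the genotypes at the threshold. MIR168A, which gives rise to the regulator of AGO1, had 1.04 and 0.871 FPKM in undigested dbr1-2, against 1.21 and 1.28 FPKM in undigested Col-0. The mutant libraries were the lower ones, as for AGO1 itself, with a log2 fold change of -0.20 and a limma adjusted p of 0.339. MIR168B was listed at 0 in all libraries. MIR403 had 0.391 and 0.326 FPKM in undigested dbr1-2, against 0.226 and 0.215 FPKM in undigested Col-0, and did not pass the filter. Its limma adjusted p in the fit without filter was 0.16. FPKM of a precursor locus is not the level of the mature microRNA, which this RNA preparation does not measure.

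With RNase R, 12 of the 33 tested pathway genes were called higher in dbr1-2 and none lower, where 29.9% of all loci were called higher and 7.09% lower. The count is near the background, and the median fold change was 0.15 for the 33 and for all loci alike. On the TPM scale the 12 became 2 and the median of the 33 was 0.016. There 1417 of all 14351 loci were called higher and 298 lower. With tag year as a covariate the 12 also became 2 (all loci 2139 higher and 284 lower), while the median was 0.20. They became 3 with only the libraries compared (all loci 2335 higher and 298 lower). Median-ratio scaling gave 10 higher and 4 lower (all loci 3513 higher and 1978 lower). The count also moved when a library was left out. The partners gave 6 of 11 with a median of 0.35, the production genes 4 of 14 with a median of 0.054. The partners called include FBW2, an F-box protein that targets AGO1 for degradation, with 4.06 and 2.46 FPKM in dbr1-2 and 1.87 and 1.78 FPKM in Col-0 (log2 fold change 0.57, limma adjusted p 0.0294). SAD2, an importin family protein, had 3.89 and 3.46 FPKM in dbr1-2, against 2.5 and 2.27 FPKM in Col-0 (0.46, limma adjusted p 0.00648). HSP90.1 (0.42), RDM1 (0.62), which acts with AGO4 in DNA methylation, HESO1 (0.47), which adds uridines to small RNAs, and SPT5L (0.32), which binds AGO4 through repeats rich in glycine and tryptophan, complete the 6. The production genes called were the Dicers DCL1 (0.55), DCL2 (0.33) and DCL4 (0.58), and DRB4 (0.52), a partner of DCL4. The remaining Dicer, DCL3, had 0.414 and 0.529 FPKM in dbr1-2, against 0.668 and 0.715 FPKM in Col-0, and HEN1 (-0.29), HST (-0.27) and SE (-0.24) also had fold changes below 0 that missed the threshold. In the DNA methylation list DMS3, at 1.00, and DRD1, at 1.47, were called of 3 tested, and these 2 are the genes still called on the TPM scale, at 0.54 for DMS3 and 1.13 for DRD1. RDM1, HESO1, DCL1, DCL2, DMS3 and DRD1 overlap other annotated genes, the intervals listed for SPT5L and DRB4 are each shared with another locus, and these libraries share the limit of the tag years.

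RNase R against none called 5 of the 33 pathway genes higher and 20 lower in dbr1-2, and 4 higher and 22 lower in Col-0. Of all tested loci 15% were called higher and 69.3% lower in dbr1-2, and 8.27% higher and 71% lower in Col-0. The pathway counts are thus near the background. Median-ratio scaling made them 13 higher and 6 lower in dbr1-2, and 10 higher and 5 lower in Col-0. Over all 14351 loci it gave 4280 higher and 4796 lower in dbr1-2, and 3909 higher and 4571 lower in Col-0. TPM left 1 pathway gene higher and 32 lower in dbr1-2, and 0 higher and 31 lower in Col-0. Of all loci it called 13856 lower in dbr1-2 and 13957 lower in Col-0. The median fold change of the 33 as deposited was -0.48 in dbr1-2 and -0.43 in Col-0, against -0.69 in dbr1-2 and -0.66 in Col-0 for all loci. No Argonaute gene was among the loci higher with RNase R as deposited, whereas TAS3, DRD1, DMS3 and SQN were in both genotypes, and ARF3 in dbr1-2 (0.28, limma adjusted p 0.0392). DRD1 had 47.9 and 40 FPKM with RNase R in dbr1-2 against 3.39 and 2.56 FPKM without, and 15 and 15.3 FPKM in Col-0 against 1.14 and 1.4 FPKM without. DMS3 had 6.52 and 6.2 FPKM with RNase R in dbr1-2 against 1.52 and 1.7 FPKM without, and 2.38 and 3.02 FPKM in Col-0 against 1.64 and 1.59 FPKM without. On the TPM scale DRD1 stayed higher with RNase R in dbr1-2, at 0.40, and stood at 0.18 in Col-0, whereas DMS3 turned to -1.07 in dbr1-2 and -1.75 in Col-0. SQN, a cyclophilin that assists AGO1 together with HSP90, had 9.92 and 2.59 FPKM with RNase R in dbr1-2 against 0.885 and 0.931 FPKM without, and 5.67 and 6.79 FPKM in Col-0 against 1.29 and 0.966 FPKM without. Its fold change of 1.71 in dbr1-2 (limma adjusted p 0.00575) and 1.76 in Col-0 (limma adjusted p 0.00555) turned to -0.56 in dbr1-2 and -0.64 in Col-0 on the TPM scale, and its interval is shared by 3 loci. The ARF3 value turned to -2.23 on the TPM scale and to -0.59 with nuclear rescaling.

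As deposited, 18 of the 33 pathway genes were called lower with RNase R in both genotypes, by -1.26 to -0.31 in dbr1-2 and -1.42 to -0.33 in Col-0. Of all tested loci 69.3% were called lower in dbr1-2 and 71% in Col-0. The share called lower in both was not counted, so the 18 are named as a description and not as a trait of the pathway. Under median-ratio scaling 10 of the 18 stayed below 0 in both genotypes: FBW2, RDM1, SDN1 (an exonuclease that degrades microRNAs), DCL3, HYL1 (a partner of DCL1), DRB4, RDR1 and RDR2 (RNA-dependent RNA polymerases), MIR168A and ARF2. The other 8 lay above 0 in 1 or both genotypes on that scale: TRN1, SAD2, SDE3, SE, HEN1 (which methylates small RNAs), NRPD2, DRM2 and ARF4. HSP90.1 and HST were called lower in dbr1-2 and not in Col-0, and SPT5L, DCL1, DCL4 and SGS3 in Col-0 and not in dbr1-2, and of these HST, SPT5L, DCL4 and SGS3 turned above 0 under median-ratio scaling.

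For each tested member the single most similar profile among 13404 named loci was taken by distance between log2(FPKM + 1) values centred on their mean over the 8 libraries. AGO10 was matched by AT5G52010, with a Pearson r of 0.997 over the 8 libraries, and AGO9 by AT1G61900, with an r of 0.998. AGO7 was matched by AT3G10760 (r 0.996), which had 3.37 and 3.46 FPKM in undigested dbr1-2, against 2.37 and 2.26 FPKM in undigested Col-0. AGO4 was nearest to SAHH2 (r 0.985), an enzyme of the methylation cycle, and AGO5 to LOS1 (r 0.969), an elongation factor of translation. AGO1 was nearest to AT5G07580 (r 0.973) and AGO2 to EMB2820 (r 0.967). No member was the nearest profile of another. With 8 libraries that share the drop under RNase R, and the best of 13404 taken each time, an r this high is a description of likeness alone.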

How the data were processed

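RNA-seq values were analysed for 8 libraries from Arabidopsis thaliana inflorescences in 4 groups of 2. The authors deposited FPKM, 1 value per locus and library. TopHat2 2.0.13, Cufflinks 2.2.1, Cuffnorm 2.2.1 and TAIR10 are named per the submitters' processing notes, without order or settings. The libraries were stranded, per the labels' protocols, but the use of strand in counting and the scaling of libraries to each other are not given in the sources used here. FPKM were taken to log2(FPKM + 1) over the 14351 of 32232 loci that reached 1 FPKM in 2 or more libraries, and tested with limma 3.58.1 in R 4.3.3 (1 fit over 8 libraries, 4 groups, 4 residual degrees of freedom, eBayes with trend, no covariate, two-sided). P-values were adjusted by Benjamini-Hochberg within each of 5 comparisons over all loci tested. The fit was also run on simulated data for 1 of the 5 comparisons, dbr1-2 against Col-0 without RNase R, and its outcome is not given here.

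Reads behind a value were estimated from steps in low FPKM after taking 199 nt off the exon length. Of low values, 86.4% to 99.8% per library lay no more than 0.05 from a whole read count. A floor of 3 reads was used, and such figures cover counting error only. Gene models and sequences came from RefSeq TAIR10.1, in which all 9 members matched by identifier. The authors' intervals, converted to 1-based, use TAIR10.

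The members and gene lists were chosen with earlier results of these data known. All members are named, with DBR1, and from each list those called, with a few of those that missed the threshold. HSP90.2, MIR168B and MIR390B gave no test. MIR390A and SQN each have 2 rows, and the one with the higher mean without RNase R was used. The alternatives were a pseudocount of 0.1, no filter, a mean of at least 5 FPKM, median-ratio scaling, TPM, rescaling to nuclear protein-coding loci, the replicate block, tag year, only the libraries compared, and leaving out each library. Without RNase R the replicate number marks a shared tag date, so it pairs the libraries (correlation of same-numbered deviations 0.30). In no other pair of groups do both numbers mark a shared date, and there the correlations lay between -0.05 and 0.08.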

Additional observations from a re-analysis of the deposited data

Results flagged for a closer look

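Among the 33 pathway genes, 3 were called by the interaction test of genotype and RNase R in limma, a share below the 13.7% of all loci called. The interaction on the log2 scale was -0.63 for HSP90.1 (adjusted p 0.0216), which fell with RNase R by 0.75 in dbr1-2 and gave -0.13 in Col-0. It was 0.68 for DCL1 (limma adjusted p 0.012), which gave 0.07 in dbr1-2 and fell by 0.61 in Col-0. It was 1.00 for DMS3 (limma adjusted p 0.00564), which gave 1.5 in dbr1-2 and 0.50 in Col-0, both called higher as deposited and lower on the TPM scale (-1.07 in dbr1-2 and -1.75 in Col-0). The FPKM of HSP90.1 in Col-0 were below 0.35, where the scale shrinks changes. With tag year as a covariate these 3 missed the threshold at interactions of similar size, -0.75 for HSP90.1 (limma adjusted p 0.0503), 0.64 for DCL1 (limma adjusted p 0.111) and 1.03 for DMS3 (limma adjusted p 0.0507). HSP90.1 was also lost under median-ratio scaling (-0.33, limma adjusted p 0.162), and DCL1 on the TPM scale (limma adjusted p 0.0839). Leaving out a library gave 1 to 9 positive and 0 to 3 negative calls among the 33.

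With RNase R, every library of HESO1 and DCL2 lay on opposite sides of the undigested ones in the 2 genotypes, with interactions that missed the threshold, 0.31 for HESO1 (limma adjusted p 0.195) and 0.27 for DCL2 (limma adjusted p 0.244). HST and RDR1 lay higher in dbr1-2 without RNase R and lower with it, with interactions of -0.46 for HST (limma adjusted p 0.072) and -0.22 for RDR1 (limma adjusted p 0.324). MIR403 did the same at -0.33 (limma adjusted p 0.0674, fit without filter). Digested, it was listed at 0 in both dbr1-2 libraries and at 0.072 and 0.188 FPKM in Col-0, near the limit of these libraries. DBR1 lay lower in dbr1-2 without RNase R (-0.28, limma adjusted p 0.0306, fit without filter). With RNase R it had 0.265 and 0.26 FPKM in dbr1-2, against 0.202 and 0.188 FPKM in Col-0, and the interaction was 0.36 (limma adjusted p 0.0497, fit without filter). DBR1 did not pass the filter. In digested libraries 1 FPKM on 1 kb was worth 8.63 to 12.8 reads, so this call and the turn in direction rest on few reads.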

How the results depend on the processing

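Without RNase R the 1 Argonaute call between genotypes became 0 with a pseudocount of 0.1, TPM or tag year, 2 with nuclear protein-coding rescaling or only the libraries compared, and 0 to 2 when a library was left out. AGO7 was lost without any of the 4 libraries lacking RNase R, and AGO1 was gained without either dbr1-2 RNase R library. The 3 calls with RNase R became 0 with a mean of at least 5 FPKM, TPM, nuclear rescaling, tag year or only the libraries compared, 1 (AGO2) under the replicate block, and 0 to 2 when a library was left out. For RNase R against none, a mean of at least 5 FPKM left 2 calls in each genotype, since few members reach it, and leaving out a library gave 5 to 6 in each. The interaction called 0 throughout. The replicate block changed no other member call.

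Median-ratio scaling turned RNase R against none to 0.62 (AGO1), 0.19 (AGO5), 0.40 (AGO2) and 0.37 (AGO4) in dbr1-2, and to 0.51 (AGO1), 0.63 (AGO5), 0.037 (AGO2), 0.11 (AGO7) and 0.65 (AGO4) in Col-0. Signs of uncalled genotype differences also turned. Without RNase R, AGO10, AGO2 and AGO9 became -0.11, -0.040 and -0.070 with median-ratio scaling, -0.11, -0.045 and -0.063 with TPM, and -0.16, -0.076 and -0.11 with nuclear rescaling. With RNase R, AGO9 became -0.024 with median-ratio scaling and -0.028 with TPM. Leaving out a library gave, without RNase R, -0.028 to 0.081 for AGO10, -0.0086 to 0.15 for AGO9, -0.17 to 0.085 for AGO5 and -0.027 to 0.023 for AGO4, with RNase R -0.023 to 0.29 for AGO9, -0.25 to 0.0054 for AGO5 with RNase R against none in Col-0, and -0.096 to 0.21 for the interaction of AGO9. Over the members, 463 values kept direction and side of the threshold, 50 kept direction and lost the threshold, 20 kept direction and gained it, and 30 changed sign. The cause was not tested.

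Over all loci, 2518 were called between genotypes without RNase R, 1467 with a pseudocount of 0.1, 934 with a mean of at least 5 FPKM, 1197 with median-ratio scaling, 5847 with only the libraries compared, and 819 to 3454 with a library left out. With RNase R 5315 were called, 1771 with the mean filter, 1715 with TPM, 2423 with tag year and 2633 with only the libraries compared. RNase R called 12098 in dbr1-2 and 11375 in Col-0, and 2882 and 2713 with the mean filter. Median-ratio scaling moved the split of calls for RNase R against none to 4280 higher and 4796 lower in dbr1-2, and 3909 and 4571 in Col-0, from 2159 and 9939 in dbr1-2, and 1187 and 10188 in Col-0. Between genotypes without RNase R the split was 2042 higher and 476 lower, against 760 and 437 with median-ratio scaling, 1878 and 1277 with TPM, and 1422 and 1308 with nuclear rescaling. With RNase R it was 4298 higher and 1017 lower, against 3513 and 1978 with median-ratio scaling. The interaction called 1973, 743 with the mean filter, 676 with tag year and 863 to 2711 with a library left out.

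Having 2 libraries a group and few reads with RNase R (2 to 68 for AGO2, AGO3, AGO6 and AGO7) limit precision.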
